A study of Mus musculus with 18 samples.

Results

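The cells described here are those of mouse bone marrow that carry transcripts of blood stem cell genes. A cell was taken when it held at least 1 UMI (a sequenced molecule counted once) of at least 2 of 6 genes: Procr, Hlf, Mecom, Mycn, Pdzk1ip1 and Tgm2. It also had to hold at most 2 UMIs of Pf4, 0 of Klf1, at most 2 of Elane and fewer than 100 of Igkc, which keeps out platelet-forming, erythroid, granulocytic and antibody-rich cells. This rule took 499 of the 8436 cells in the deposited table, and the other 7937 cells served for comparison. The table came from short-read 10x Genomics 3′ sequencing of LK cells, the lineage-negative marrow fraction that carries the receptor Kit (Cd117). One library was made from each of 6 female C57BL/6 mice, and no allele or agent was used: mice 2, 4 and 6 were aged (72 weeks) and mice 1, 3 and 5 were young (8 weeks). All cells had passed the surface sort before sequencing, so the cells below are a transcript-defined subset of Kit-positive progenitors and were not sorted for Sca-1, Cd150 or Cd48.

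Haematopoietic stem cells (HSCs) are rare, mostly resting marrow cells that renew themselves and give rise to all blood lineages. In aged mice the pool of cells with an HSC surface phenotype is known to grow, while its output leans towards platelets and myeloid cells and away from lymphocytes. Of the genes in the rule, Hlf, Mecom and Mycn encode transcription factors, Procr encodes the endothelial protein C receptor of the stem cell surface, Tgm2 encodes a transglutaminase that crosslinks proteins, and Pdzk1ip1 encodes a small membrane protein. Procr and Tgm2 are themselves among genes known to be higher in aged HSCs.

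Aged mice 2, 4 and 6 gave 91, 259 and 39 of these cells, and young mice 1, 3 and 5 gave 39, 48 and 23. Mouse 4 alone gave more than the other 5 mice together, and mouse 5 gave the fewest. In sum the cells of one mouse held 387292, 1273537 and 206019 UMIs in aged mice 2, 4 and 6, against 184064, 237020 and 152993 in young mice 1, 3 and 5. Whole libraries held between 3628043 and 17585424 UMIs. A barcode that also occurred in another library marked 84 of all cells, 8 of them in the gate, and no barcode joined 2 gate cells.

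Promoters of 7 genes are shown first because their values are given below: Nupr1 and Sult1a1, which lie near each other on chromosome 7, H2-Aa and H2-Eb1, which encode chains of MHC class II, and Ccnb2, Ccnb1 and Cdc20, which act in mitosis. Each is the RefSeq sequence of GRCm38.p6, the build named in the submitters' processing notes. It runs from 250 bases before to 50 bases after the start used for the gene, on the gene's own strand. For Sult1a1 the start used lies inside the gene and not at its outer end. Capitals mark 4 motifs, each searched on both strands. The CCAAT box reads ATTGG when it lies on the other strand. The element TTTGAA would read as TTCAAA there. The cAMP response element TGACGTCA is its own reverse complement, as is the E-box CACGTG. No marked motif overlapped another.
Nupr1, chr7:126625421-126625720, minus strand: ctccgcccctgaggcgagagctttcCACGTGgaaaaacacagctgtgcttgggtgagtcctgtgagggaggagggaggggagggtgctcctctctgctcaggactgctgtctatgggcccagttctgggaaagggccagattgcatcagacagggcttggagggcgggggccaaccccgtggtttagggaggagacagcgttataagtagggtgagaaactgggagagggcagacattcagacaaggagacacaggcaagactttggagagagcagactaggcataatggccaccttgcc
Sult1a1, chr7:126676369-126676668, minus strand: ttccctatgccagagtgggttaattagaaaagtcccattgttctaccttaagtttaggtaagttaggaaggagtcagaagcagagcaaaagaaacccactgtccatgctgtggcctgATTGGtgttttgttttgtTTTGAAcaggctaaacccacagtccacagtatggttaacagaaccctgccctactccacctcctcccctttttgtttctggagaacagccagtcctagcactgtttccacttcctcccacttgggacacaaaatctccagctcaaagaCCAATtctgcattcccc
H2-Aa, chr17:34287774-34288073, minus strand: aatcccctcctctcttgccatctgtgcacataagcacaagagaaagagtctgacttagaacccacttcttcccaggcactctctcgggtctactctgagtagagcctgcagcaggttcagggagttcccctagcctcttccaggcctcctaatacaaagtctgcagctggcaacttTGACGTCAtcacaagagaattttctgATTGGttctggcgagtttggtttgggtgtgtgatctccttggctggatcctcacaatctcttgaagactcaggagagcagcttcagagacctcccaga
H2-Eb1, chr17:34305617-34305916, plus strand: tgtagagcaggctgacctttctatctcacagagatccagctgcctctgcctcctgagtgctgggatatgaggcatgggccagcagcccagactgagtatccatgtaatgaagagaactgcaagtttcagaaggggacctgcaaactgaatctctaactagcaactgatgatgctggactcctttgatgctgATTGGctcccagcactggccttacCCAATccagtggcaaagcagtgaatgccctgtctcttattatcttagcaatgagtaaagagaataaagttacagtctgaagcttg
Ccnb2, chr9:70421505-70421804, minus strand: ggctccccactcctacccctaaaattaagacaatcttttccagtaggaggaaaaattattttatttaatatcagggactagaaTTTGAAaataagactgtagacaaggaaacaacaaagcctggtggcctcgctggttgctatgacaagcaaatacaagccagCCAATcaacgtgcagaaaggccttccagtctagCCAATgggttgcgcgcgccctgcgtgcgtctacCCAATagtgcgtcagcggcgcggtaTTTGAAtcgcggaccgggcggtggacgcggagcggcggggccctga
Ccnb1, chr13:100786437-100786736, minus strand: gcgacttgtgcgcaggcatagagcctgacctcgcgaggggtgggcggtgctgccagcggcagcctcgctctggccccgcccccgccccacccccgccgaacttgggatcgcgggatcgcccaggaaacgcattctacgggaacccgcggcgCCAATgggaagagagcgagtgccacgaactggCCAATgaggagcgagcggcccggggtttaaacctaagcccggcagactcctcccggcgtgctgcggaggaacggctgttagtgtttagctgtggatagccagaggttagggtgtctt
Cdc20, chr4:118437294-118437593, minus strand: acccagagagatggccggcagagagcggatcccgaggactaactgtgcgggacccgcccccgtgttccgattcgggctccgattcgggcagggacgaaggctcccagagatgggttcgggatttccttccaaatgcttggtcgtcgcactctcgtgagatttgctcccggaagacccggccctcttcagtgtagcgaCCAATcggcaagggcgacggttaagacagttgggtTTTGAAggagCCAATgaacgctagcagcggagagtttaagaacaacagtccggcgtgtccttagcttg
CCAAT boxes, TTTGAA elements (cell cycle gene homology regions) and cAMP response elements such as TGACGTCA are known parts of mitotic and MHC class II promoters. The Ccnb2 window held 3 CCAAT and 2 TTTGAA, the Ccnb1 window held 2 CCAAT and 0 TTTGAA, and the Cdc20 window held 2 CCAAT and 1 TTTGAA. H2-Aa held 1 TGACGTCA followed by 1 ATTGG, and H2-Eb1 held 1 ATTGG and 1 CCAAT. Nupr1 held a single CACGTG and none of the others. Sult1a1 held ATTGG once, the element TTTGAA once and, near the start used, CCAAT once. Among 32851 RefSeq mouse promoters of the same length, CCAAT occurred in 37.4%, TTTGAA in 17.9%, CACGTG in 7.15% and TGACGTCA in 1.79%, on either strand.

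The markers in the rule were seen sparsely, as is usual for low transcripts in single cells. Exactly 2 of the 6 were found in 250 cells, 3 in 147, 4 in 70, 5 in 29 and all 6 in 3. Just outside the rule, 926 cells within the limits of the 4 exclusion genes held 1 marker, and 2199 held 0. Pdzk1ip1 had a UMI in 74.7% of the gate cells, Hlf in 55.5%, Procr in 45.3%, Mecom in 44.7%, Tgm2 in 29.7% and Mycn in 27.5%. Hlf with Pdzk1ip1 was the most frequent pair, in 184 cells (36.9%). Granulocyte progenitors, which should lack these genes, were taken as cells with at least 10 Elane UMIs, a class chosen after values were seen. Of its 2124 cells, 1.22% held at least 2 of the markers at a median of 9423 UMIs per cell, while the gate cells had a median of 4365 UMIs.

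Gate cells of aged mice carried more of the markers per cell than those of young mice. At least 3 markers were found in 40.7%, 64.5% and 46.2% of the gate cells of aged mice 2, 4 and 6, against 28.2%, 27.1% and 13.0% in young mice 1, 3 and 5. Procr was at 124, 163 and 63.1 CPM (UMIs of the gene per 1000000 UMIs of the mouse's gate cells) in aged mice 2, 4 and 6, and at 103, 97.0 and 32.7 CPM in young mice 1, 3 and 5. Mecom was at 93.0, 137 and 160 CPM in aged mice and 48.9, 92.8 and 26.1 CPM in young mice, the one marker whose ages did not overlap. Hlf spread over 141 to 204 CPM in aged mice and 125 to 165 CPM in young mice. These values are a description, since the same counts chose the cells.

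The label of the cells was checked against 26 further genes of stem cell identity that the rule did not use. Their summed level was 6793, 7942 and 5563 CPM in the gate cells of aged mice 2, 4 and 6, and 6536, 6042 and 5314 CPM in those of young mice 1, 3 and 5. In the other LK cells it averaged 2861 CPM in aged mice and 3079 CPM in young mice, so that the gate was higher in 6 of 6 mice. Singly, 16 of the 26 genes were higher in the gate cells of 6 of 6 mice. Over all 5071 genes at 20 CPM or more in the gate, 681 (13.4%) were. Among these 26 were Ifitm1 and Ifitm3, which encode interferon-induced membrane proteins, Lmo2, a bridging protein of stem cell transcription factor complexes, and Mllt3, a reader of chromatin in stem cells.

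Genes of committed cells were also found in the gate cells. The granulocyte-monocyte list summed to 2301, 1346 and 2340 CPM in the gate cells of aged mice and 2765, 1363 and 2072 CPM in those of young mice, while the other LK cells held 7649 to 17617 CPM in aged mice and 6847 to 15536 CPM in young mice. The erythroid list summed to 1447 to 1616 CPM in the gate of aged mice and 1063 to 1760 CPM in that of young mice, and to 1378 to 2539 CPM in the other cells of aged mice and 1635 to 2441 CPM in those of young mice. Elane and Klf1, which the rule limits, are among these lists, so the sums are a description. Of the B and plasma cell list 10 of 14 genes had a UMI in the gate, of the T and NK cell list 4 of 7, of the macrophage and dendritic cell list 8 of 11, of the endothelial list 8 of 9, of the stromal list 3 of 5, of the eosinophil list 2 of 5 and of the lymphoid priming list 9 of 11. The members at 0 UMIs in all 499 cells were Cd79a, Ms4a1, Ebf1 and Vpreb3 of B cells, Cd3d, Trac and Trbc1 of T cells, Il7r and Ccr9 of lymphoid progenitors, Epx, Ear1 and Ear2 of eosinophils, C1qc, Siglech and Itgax of macrophages and dendritic cells, Cdh5 of endothelium, and Cxcl12 and Col1a1 of stroma. Single cells stood out all the same. For the basophil proteases Mcpt8 and Prss34, 1 cell held 967 of the 1041 UMIs of aged mouse 2, and 2 cells held 1292 of the 1321 UMIs of young mouse 1. For the chemokine Ccl5, 23 of 26 UMIs of aged mouse 2 and 79 of 80 UMIs of young mouse 5 came from 1 cell each. No doublet caller was run here.

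Genes outside the rule were ranked by the lowest of their 6 ratios of gate to other cells, 1 per mouse, among the 5071 genes at 20 CPM or more in the gate with a UMI in both sums of every mouse. Sult1a1, which encodes a sulfotransferase of phenolic compounds, came first with a lowest ratio of 34.7. Next came Myl10, a myosin light chain gene, at 640, 236 and 413 CPM in the gate cells of aged mice and 234, 439 and 170 CPM in those of young mice, against a mean of 44.0 CPM in the other cells. Lymphoid-primed cells, taken by a UMI of both Flt3 and Dntt, also held Myl10, at 246 CPM over the pooled cells. Plscr2, Plxna4os1, Tcf15, Clec1a, Gimap5, Ltb, Pglyrp2, Gm19590, Gimap6, Gm16140 and Rnf122 were also among the leading genes. Ltb encodes lymphotoxin beta, and Tcf15 a transcription factor linked to stem cell quiescence. Such ratios describe cells chosen from the same counts and carry no test.

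**Figure D1:**
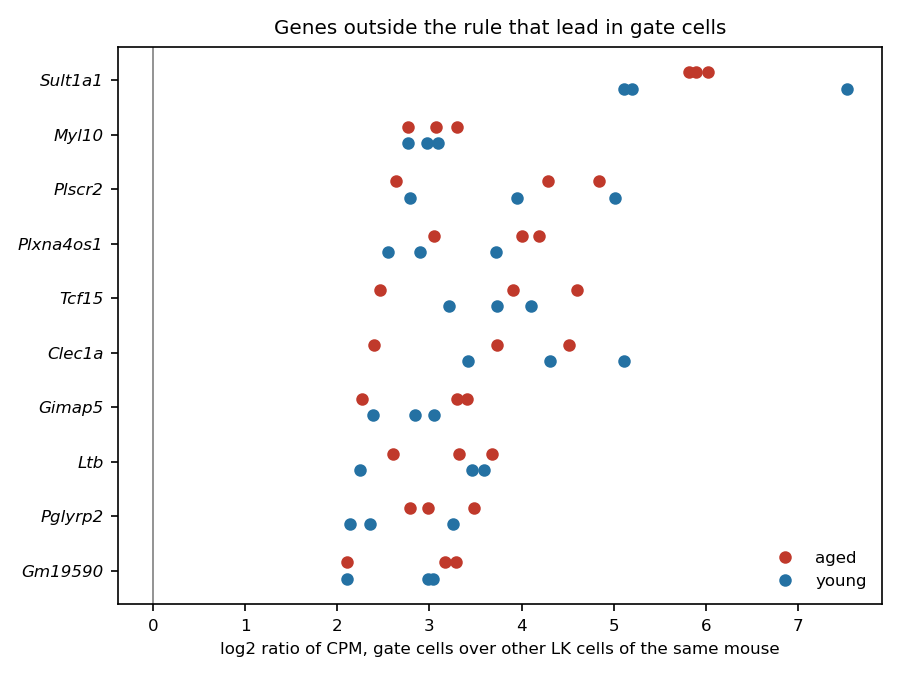
Log2 ratio of CPM in gate cells over the other LK cells of the same mouse (x axis) for the 10 leading genes outside the rule, 1 point per mouse, aged above young in each row. All points lie right of 0, and Sult1a1 stands farthest, with a lowest ratio of 34.7 on the linear scale.

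Pooled levels of several genes differed with the number of markers a cell held. The values are pooled over mice, and mouse 4, whose gate cells had the lowest Plac8 and Cd48, gave 92 of the 167 aged cells with 2 markers, 91 of the 126 with 3, and 51, 22 and 3 cells with 4, 5 and 6 markers. Among cells within the limits, Plac8, which encodes a small cysteine-rich protein of myeloid and lymphoid progenitors, stood at 3586, 2216, 1015, 569 and 258 CPM in aged mice for 0, 1, 2, 3 and at least 4 markers. In young mice the same order gave 4388, 3583, 2225, 1173 and 847 CPM. Cd48, the gene of a surface protein that resting HSCs lack, was at 213, 161, 121, 44.6 and 4.61 CPM in aged mice, and at 193, 179, 180, 47.3 and 35.3 CPM in young mice. Cd34, whose protein is absent from the most primitive mouse HSCs, was at 348, 380, 345, 220 and 85.3 CPM in aged mice and at 317, 361, 382, 359 and 106 CPM in young mice, highest at 1 marker in aged and at 2 in young mice. Cells with at least 4 markers numbered 96 in aged mice and 6 in young mice, so that the young values there rest on few cells. The proliferation gene Mki67 had a UMI in 15.6% of all cells with 2 markers and in 0.98% of those with at least 4.

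**Figure D2:**
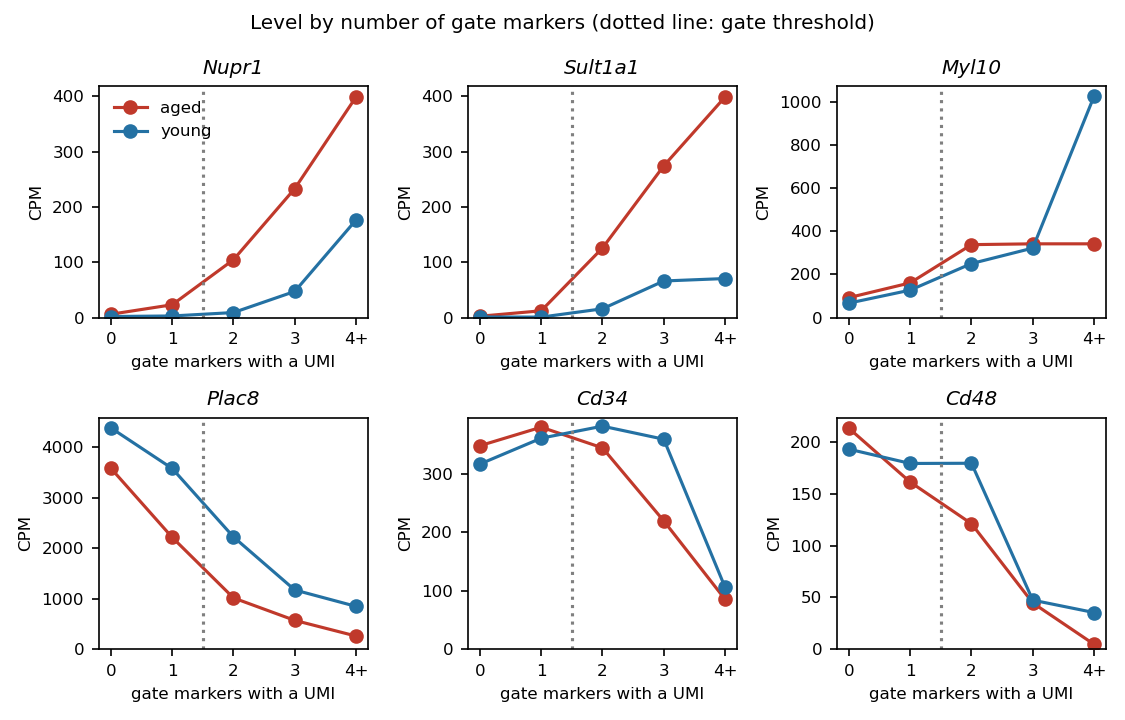
Pooled level (CPM, y axis) of 6 genes by the number of gate markers with a UMI (x axis) in cells within the limits, aged in red and young in blue, with the gate threshold as a dotted line. Nupr1 and Sult1a1 climb from 1 marker upward, with the aged line above the young one at every number, while Plac8 and Cd48 are lowest in cells with at least 4 markers.

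The first question of the design was whether the aged marrow held more of these cells. They made up 5.39%, 13.5% and 5.73% of the LK cells of aged mice 2, 4 and 6, against 2.35%, 3.13% and 2.41% of those of young mice 1, 3 and 5. All 3 aged mice lay above all 3 young mice. The mean was 8.20 ± 4.59% in aged mice and 2.63 ± 0.44% in young mice (SD, n = 3 each), a difference of 5.58 percentage points and a ratio of 3.12. The exact two-sided permutation test over mice gave p = 0.1, the smallest p that 3 against 3 allows. Mouse 4 carried much of the size, since without it the difference was 2.93 points. The share comes from the same marker counts that chose the cells, so a higher marker level per cell would also raise it. That part was not tested. With Procr and Tgm2 left out of the rule, the share was 3.91%, 10.8% and 4.99% in aged mice 2, 4 and 6. In young mice 1, 3 and 5 it was then 1.69%, 2.09% and 1.78%.

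**Figure D3:**
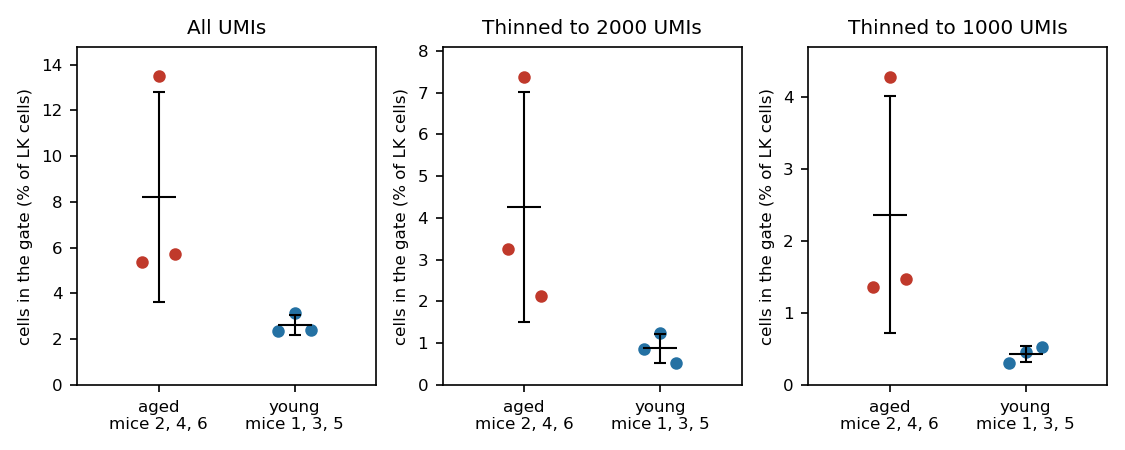
Share of LK cells in the gate (%, y axis) by age, 1 point per mouse with the mean ± SD of 3 mice, from all UMIs and after each cell was drawn down to 2000 or 1000 UMIs. The 3 aged mice lie above the 3 young mice in all panels, and mouse 4 is highest.

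Depth decides how often a marker is seen, so the share was also taken at equal depth. Markers and exclusion limits were then both judged on the reduced counts, so cells barred by a limit at full depth could enter. With each cell drawn down to 2000 UMIs it was 3.25%, 7.36% and 2.14% in aged mice 2, 4 and 6, against 0.863%, 1.24% and 0.530% in young mice 1, 3 and 5. At 1000 UMIs it was 1.36%, 4.27% and 1.47% in aged mice, against 0.301%, 0.457% and 0.523% in young mice. The ages did not overlap at either depth. Asking for at least 3 markers left 2.19%, 8.70% and 2.64% of the LK cells of aged mice, against 0.663%, 0.848% and 0.314% of those of young mice. Median UMIs per gate cell were 3843, 4501 and 4444 in aged mice and 4246, 4052 and 6622 in young mice. These medians overlapped, with a mean difference of −711 UMIs (exact permutation p = 0.7, two-sided), and in the other LK cells they ran from 4215.5 to 9335 in aged mice and from 4177 to 7190 in young mice.

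The second question was which genes differed with age within the gate. UMIs were summed per mouse over its gate cells and tested with edgeR's quasi-likelihood test. Of 2989 genes tested, 1 passed at a Benjamini-Hochberg adjusted p under 0.05 (0.0335%), while 109 were higher and 75 lower at an unadjusted p under 0.05 (3.65% and 2.51%). Aged mice lay wholly above young mice for 121 genes (4.05%) and wholly below them for 143 (4.78%). The median log2 fold change over all tested genes was −0.0019. Aged gate cells also held more markers per cell, and the part of this in the age differences was not tested beyond the settings named below.

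The gene that passed was Nupr1, which encodes a small stress-induced chromatin protein. It lies at chr7:126623246-126625470. Its UMIs numbered 61, 300 and 37 in the gate cells of aged mice 2, 4 and 6, against 5, 8 and 1 in those of young mice 1, 3 and 5. These are 158, 236 and 180 CPM in aged mice and 27.2, 33.8 and 6.54 CPM in young mice. The lowest aged mouse thus lay far above the highest young one. Nupr1 rose by 3.04 on the log2 scale (SE 0.39, edgeR adjusted p = 0.0137).

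More cells held Nupr1 in aged mice. After thinning to 2000 UMIs, Nupr1 had a UMI in 20.7%, 32.7% and 27.0% of the gate cells of aged mice, against 2.78%, 6.25% and 4.35% in young mice. In granulocyte progenitors the share was 0.553% in aged mice (6 of 1085 cells) and 0.0989% in young mice (1 of 1011 cells). Whether these UMIs were free RNA in the droplets or low expression was not tested. In megakaryocyte cells, taken by Pf4 and Itga2b, it was 8.00% in aged mice and 1.46% in young mice. The ages were also compared at equal numbers of markers. Among cells with exactly 2 markers, 45 of 167 aged cells held Nupr1 (26.9%, exact 95% interval 20.4 to 34.3%), against 3 of 83 young cells (3.61%, 0.752 to 10.2%). Among cells with 3 markers, 61 of 126 aged cells held it (48.4%), against 2 of 21 young cells. These intervals cover counting error only, since cells of one mouse are not replicates. In the test over mice the log2 fold change of Nupr1 was 3.44 for cells with exactly 2 markers (adjusted p = 0.280) and 2.03 for cells with at least 3 (adjusted p = 0.109). Leaving out young mouse 1, 3 or 5 gave 3.08, 3.56 and 2.66 with adjusted p = 0.0718, 0.0843 and 0.0803. Over 17 alternatives its log2 fold change ran from 2.03 to 3.56, and 12 passed.

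Sult1a1 did not pass in this fit. It passed in 6 of 16 alternatives, among them DESeq2 and the term for mice 1 and 2, with log2 fold changes from 2.17 to 3.14. It was at 188, 275 and 82.5 CPM in the gate cells of aged mice 2, 4 and 6, and at 21.7, 33.8 and 26.1 CPM in those of young mice 1, 3 and 5. No aged mouse reached down to the young ones, for a log2 fold change of 2.85 (SE 0.47, edgeR adjusted p = 0.0746). Both genes were found together in 107 of 389 aged gate cells (27.5%) and in 4 of 110 young gate cells (3.64%). Sult1a1 was missing from nearly all other cells, at 3.18, 4.23 and 1.46 CPM in aged mice and 0.591, 0.974 and 0.141 CPM in young mice. Nupr1 was at 6.10, 7.30 and 21.0 CPM there in aged mice, against 1.69, 2.07 and 2.26 CPM in young mice. Its log2 fold change in the other cells was 2.36 (unadjusted p = 0.0013, adjusted p = 1.00). The difference between that value and the one in the gate, tested as an interaction, was 0.92 (adjusted p = 0.968).

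The genes Nupr1 and Sult1a1 lie 47395 bases apart with Sgf29 between them, Sult1a1 at chr7:126672865-126690443. The promoter window of Sult1a1 printed above lies within this span and not at its outer end. Within 100000 bases of the pair the table held 15 genes, of which 9 were tested. The other 7 had log2 fold changes between −0.21 (Coro1a, an actin-binding protein gene) and 0.10 (Eif3c, a translation factor gene). None of the 7 had an unadjusted p under 0.05, the smallest being 0.227 for Coro1a.

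Genes known from other work to be higher in aged mouse HSCs were taken as a list of 45, which holds Nupr1 and Sult1a1. Only 6 had counts enough to be tested in the gate, all 6 with a positive log2 fold change (median 1.02), and Nupr1 alone passed. Of all 45, 44 had a UMI in the gate, and all 44 had the higher mean CPM in aged mice. Among all 15089 genes with a UMI, 57.9% had it too. Aged mice lay wholly above young mice for 17 of the 44, where 5.57% of all 15089 genes with a UMI did so, and wholly below for 0, where 2.92% did so. The summed level was 2406, 2896 and 1718 CPM in aged mice 2, 4 and 6, against 1244, 1173 and 1118 CPM in young mice 1, 3 and 5. Without Nupr1 and Sult1a1 it was 2060, 2385 and 1456 CPM in aged mice and 1195, 1105 and 1085 CPM in young mice. In the other LK cells the sums were 1289, 1455 and 1912 CPM in aged mice and 1376, 1422 and 1343 CPM in young mice, with overlap. Single members could still differ with age in those cells, as given below. The list was compiled with earlier results of these data known and is no independent evidence.

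Several members were too scarce for the test. Clu, which encodes the chaperone clusterin, was at 49.1, 55.0 and 24.3 CPM in the gate cells of aged mice, against 5.43, 0 and 6.54 CPM in young mice. Plscr2, a phospholipid scramblase gene, was at 51.6, 55.0 and 43.7 CPM in aged mice and 5.43, 4.22 and 6.54 CPM in young mice. Selp, the gene of the adhesion receptor P-selectin, was at 41.3, 39.3 and 48.5 CPM in aged mice and 27.2, 12.7 and 6.54 CPM in young mice. Aged mice lay above young mice for these genes, as also for Aldh1a1, a retinal dehydrogenase gene, and Clec1a, a lectin receptor gene. Vwf, the gene of a platelet adhesion protein that marks platelet-biased HSCs, was at 36.1, 27.5 and 4.85 CPM in aged mice and 10.9, 12.7 and 0 CPM in young mice, which overlapped. In the other LK cells these genes had log2 fold changes of 3.11 (Plscr2), 2.35 (Clec1a), 1.62 (Selp), 1.16 (Aldh1a1), 0.671 (Clu) and 0.318 (Vwf). None passed there in edgeR, and all but Vwf had an unadjusted p under 0.05. The age difference in the gate minus that in the other cells was 0.496 for Plscr2, −0.531 for Clec1a and 0.0293 for Selp. It was 0.859 for Aldh1a1, 1.603 for Vwf and 3.24 for Clu, and none passed as an interaction. All of these genes were named after their values were seen.

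**Figure D4:**
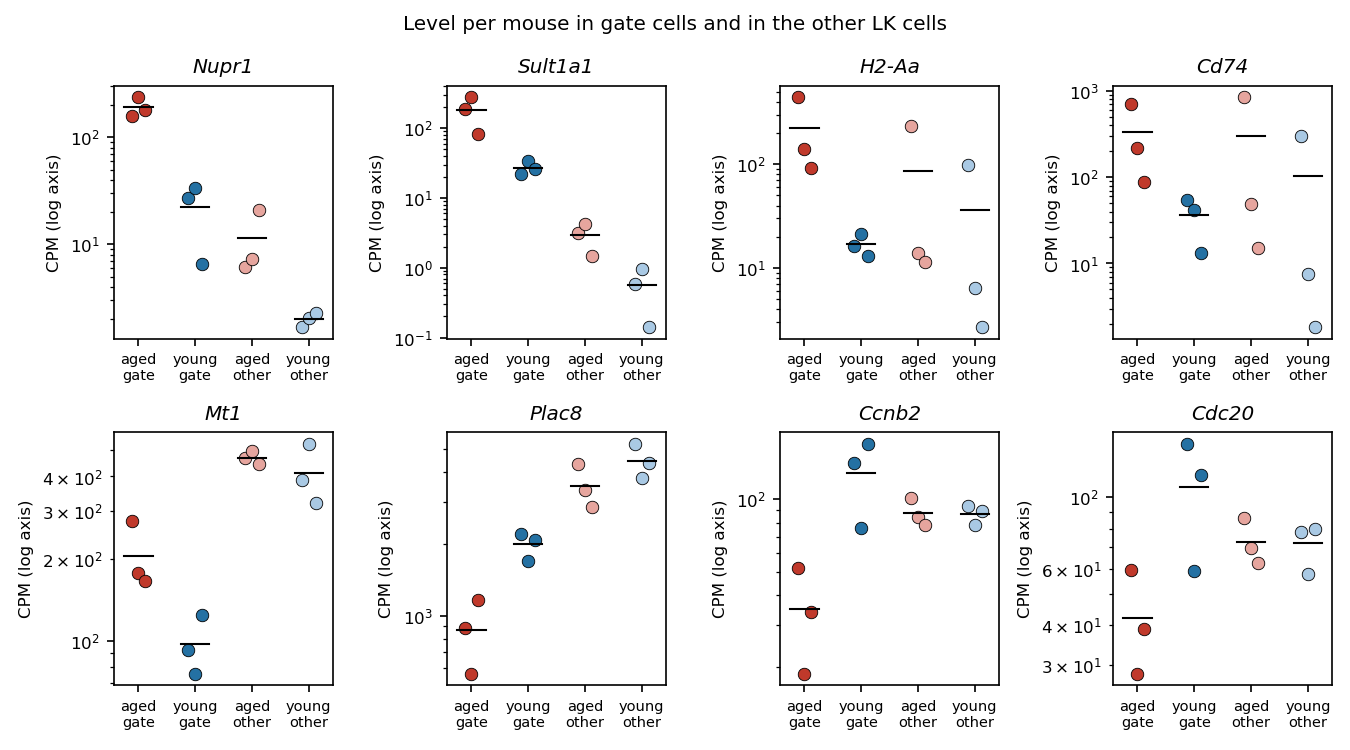
Level per mouse (CPM, log axis) of 8 genes in gate cells and in the other LK cells, with aged left of young and a bar at the mean of 3 mice. In gate cells Nupr1, Sult1a1, H2-Aa, Cd74 and Mt1 lie higher in all aged than in all young mice, and Plac8 and Ccnb2 lower.

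MHC class II genes formed the other group with high values in aged gate cells. These genes encode the proteins that present antigen to helper T cells, and Cd74 encodes their invariant chain. H2-Aa was at 442, 141 and 92.2 CPM in aged mice 2, 4 and 6, and at 16.3, 21.1 and 13.1 CPM in young mice 1, 3 and 5, a log2 fold change of 3.68 (edgeR adjusted p = 0.0746). Cd74 was at 700, 217 and 87.4 CPM in aged mice and 54.3, 42.2 and 13.1 CPM in young mice, a log2 fold change of 3.14 (adjusted p = 0.190). H2-Ab1 was at 434, 137 and 160 CPM in aged mice and 76.1, 63.3 and 45.8 CPM in young mice, a log2 fold change of 1.95 (adjusted p = 0.200). H2-Eb1 was at 139, 78.5 and 43.7 CPM in aged mice and 32.6, 25.3 and 6.54 CPM in young mice, too few UMIs to test. No aged mouse overlapped a young one for these genes, and none of those tested passed in this fit. H2-Aa passed in 8 of 15 alternatives, H2-Ab1 in 4 of 17 and Cd74 in 3 of 15. Each of these genes passed with a term for mice 1 and 2. No label ties these mice, and both were high in MHC class II genes in their other LK cells. Passing with that term is therefore no independent support. H2-DMa, which helps to load peptide, had a log2 fold change of −0.01. H2-DMb1 was at 103, 65.2 and 48.5 CPM in aged mice and 38.0, 25.3 and 26.1 CPM in young mice. Its log2 fold change was 1.33 without overlap (edgeR adjusted p = 0.498). Ciita went the other way without overlap, at 2.58, 3.93 and 0 CPM in aged mice and 10.9, 4.22 and 6.54 CPM in young mice. It had only 6 UMIs in aged and 4 in young gate cells, too few to test. H2-DMb1 and Ciita were named after their values were seen.

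Taken per cell, MHC class II was spread over many gate cells and also concentrated in a few. A UMI of H2-Aa, H2-Ab1, H2-Eb1 or Cd74 was found in 62 of 91, 162 of 259 and 23 of 39 gate cells of aged mice 2, 4 and 6, against 18 of 39, 10 of 48 and 5 of 23 in young mice 1, 3 and 5. Among the other LK cells the share with such a UMI was 55.98%, 46.4% and 31.5% in aged mice 2, 4 and 6. In young mice 1, 3 and 5 it was 45.7%, 20.3% and 25.5%. The gate share was thus higher in all aged mice. In young mice the gate shares were 46.2%, 20.8% and 21.7%, near those of the other cells. These shares were not taken at equal depth. The summed level of the 4 genes was 1714, 574 and 383 CPM in aged mice and 179, 152 and 78.4 CPM in young mice. One cell of aged mouse 2 held 431 of its 664 UMIs, and without that cell the mouse was at 615 CPM. The 4 genes were also high in the other LK cells of mouse 2, at 1525 CPM, against 129 and 98.2 CPM in aged mice 4 and 6 and 635, 60.6 and 43.9 CPM in young mice 1, 3 and 5. The whole macrophage and dendritic cell list summed to 388 to 1714 CPM in the gate of aged mice and 78.4 to 190 CPM in that of young mice. C1qa was at 1 UMI, Vcam1 at 1 in aged and 1 in young mice, and C1qc, Siglech and Itgax at 0. After thinning to 2000 UMIs, H2-Aa was found in 28.7%, 22.3% and 8.11% of the gate cells of aged mice, against 2.78%, 6.25% and 4.35% in young mice. In granulocyte progenitors it was found in 0.829% in aged mice and 0.396% in young mice. Lymphoid-primed cells gave 7.51% and 4.51%. H2-Ab1 was less confined to the gate at this depth. It was found in 22.4% of aged and 7.48% of young gate cells. Granulocyte progenitors gave 13.3% and 9.001% for H2-Ab1, and lymphoid-primed cells 21.97% and 12.8%. Cd74 had the same gate shares as H2-Ab1, with 1.94% and 0.692% in granulocyte progenitors and 9.25% and 3.76% in lymphoid-primed cells. The part of free RNA or of single outlying cells in these levels was not tested beyond these values.

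Further genes with higher values in aged gate cells did not pass either. Trim47, a ubiquitin ligase gene, was at 137, 133 and 58.2 CPM in aged mice and 32.6, 29.5 and 32.7 CPM in young mice (log2 fold change 1.93, adjusted p = 0.112). Mt1, which encodes a metal-binding metallothionein, was at 274, 177 and 165 CPM in aged mice and 92.4, 75.9 and 124 CPM in young mice (1.14, adjusted p = 0.190). Krt18 (1.01), the pseudogene Rps26-ps1 (1.06), Mllt3 (1.67) and Ogt (1.00) each had an adjusted p of 0.385. The counts of Rps26-ps1 are uncertain, since reads of the parent gene Rps26 can be assigned to it.

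On the lower side 2 genes stood out, neither past the test. Plac8 was at 883, 570 and 1160 CPM in aged mice 2, 4 and 6, against 2206, 1700 and 2079 CPM in young mice 1, 3 and 5, a log2 fold change of −1.18 (SE 0.23, adjusted p = 0.112). After thinning to 2000 UMIs, Plac8 was found in 70.1%, 44.2% and 86.5% of aged gate cells and 86.1%, 77.1% and 87.0% of young ones, so that the shares overlapped where the levels did not. Ccnb2, the gene of the mitotic cyclin B2, was at 51.6, 18.8 and 34.0 CPM in aged mice, against 141, 75.9 and 170 CPM in young mice, a log2 fold change of −1.99 (SE 0.38, adjusted p = 0.112). Gng12 (−0.93), Erh (−0.86), the survivin gene Birc5 (−0.93), Emb (−0.69), H2afx (−0.61), the centromeric histone gene Cenpa (−0.78) and Dlst (−1.13) followed, with adjusted p between 0.450 and 0.629. Of the list known to be lower in aged HSCs, 6 of 12 genes were tested, 5 had a negative log2 fold change, 3 of these at an unadjusted p under 0.05 (2.51% of all genes in that direction), and none passed.

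Genes of the G2 and M phases of the cell cycle lay lower in aged gate cells in number but not past the test. Of 25 tested genes 24 had a negative log2 fold change, the median being −0.57, and 7 had an unadjusted p under 0.05, where 2.51% of all genes did so in that direction. Their summed level was 3638, 2406 and 3621 CPM in aged mice and 4982, 3164 and 5419 CPM in young mice, and the ages overlapped because young mouse 3 was low. Genes of S phase were nearer to even, with 12 of 21 negative and a median of −0.11. Mki67 was found in 5.75%, 3.98% and 5.41% of the thinned gate cells of aged mice, against 13.9%, 4.17% and 4.35% in young mice. The mean difference was −2.42 percentage points (exact permutation p = 0.8, two-sided), and without young mouse 1 it was 0.788. Granulocyte progenitors gave 9.12% in aged mice and 5.93% in young mice for Mki67 at the same depth.

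**Figure D5:**
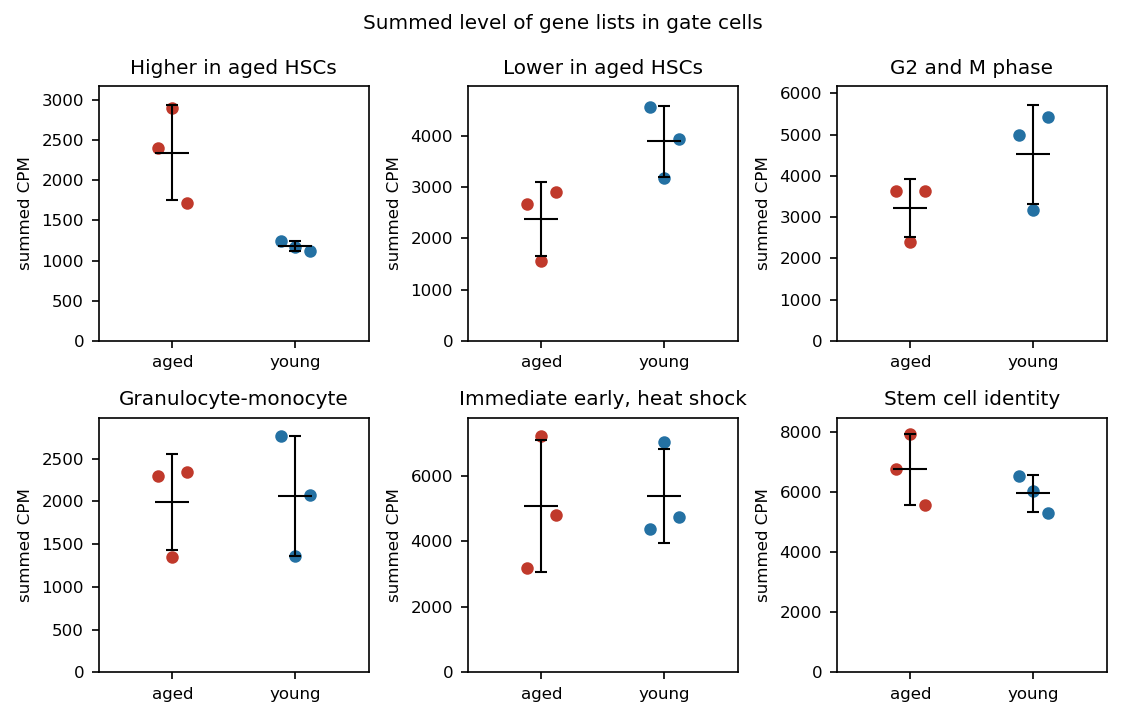
Summed CPM of 6 gene lists in the gate cells (y axis) by age, 1 point per mouse with the mean ± SD of 3 mice. The lists known to be higher and lower in aged HSCs separate the ages, while the other 4 lists overlap.

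Genes of surface receptors by which stem cells are sorted did not pass the test between ages. Cd34 was at 310, 217 and 301 CPM in aged mice and 391, 333 and 379 CPM in young mice, a log2 fold change of −0.40 without overlap (adjusted p = 0.786). Cd48 was at 87.8, 56.5 and 121 CPM in aged mice and 120, 139 and 196 CPM in young mice, which overlapped at the margin (−0.85, adjusted p = 0.730). Slamf1, the gene of Cd150, was at 7.75, 20.4 and 29.1 CPM in aged mice and 5.43, 0 and 6.54 CPM in young mice, from 35 and 2 UMIs, too few to test. Kit, Ly6a (the gene of Sca-1), Cd9, Cd27, Eng and Cd63 overlapped between ages, with log2 fold changes between −0.01 (Eng) and 0.47 (Ly6a). Of the 9 receptors tested none passed, and 2 had an unadjusted p under 0.05, both lower (Cd34 and Cd48), where 2.51% of all genes were.

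Further genes, taken from the study's text on HSC ageing, did not pass in these cells. Of all 9 genes named there, Nupr1 among them, 5 were lower at an unadjusted p under 0.05 in edgeR (2.51% of all genes). By the same measure 3 were higher (3.65% of all genes). Aged mice lay wholly below young mice for 3 of the 9, where 4.78% of all genes did so. The study named them from these data, so the counts are no independent evidence. Gpx1, a glutathione peroxidase gene, was at 1498, 882 and 1146 CPM in aged mice and 2005, 1561 and 1510 CPM in young mice (−0.50 without overlap, adjusted p = 0.755). Tmsb10 was at 1134, 633 and 748 CPM in aged mice and 1255, 1207 and 1085 CPM in young mice. Rpl35, a ribosomal protein gene, had a log2 fold change of −0.47 with overlap. Of 80 tested ribosomal protein genes none passed, with a median log2 fold change of 0.03. Igkc was at 2492, 186 and 82.5 CPM in the gate of aged mice and 212, 16.9 and 6.54 CPM in that of young mice, and at 35656, 6655 and 845 CPM in the other cells of aged mice and 4649, 6.82 and 20.9 CPM in those of young mice. In both the gate and the other cells it was highest in mouse 2 among aged and in mouse 1 among young mice, and a limit on Igkc was part of the rule.

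Some programmes followed the mouse more than the age. Immediate early and heat shock genes, which respond to handling of cells, summed to 3194, 7193 and 4801 CPM in aged mice 2, 4 and 6 and to 4363, 7020 and 4739 CPM in young mice 1, 3 and 5. Mice 3 and 4 were the highest of the 6. Klf2, a transcription factor gene of resting cells, was at 25.8, 751 and 107 CPM in aged mice and 163, 363 and 176 CPM in young mice. Quiescence genes as a list summed to 723, 2488 and 1048 CPM in aged mice and 864, 1797 and 902 CPM in young mice. Interferon response genes overlapped between ages, and 0 of 4 tested passed. All 11 mitochondrially encoded genes tested had positive log2 fold changes (median 0.17), none with an unadjusted p under 0.05.

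The third question was whether a gene's age difference in the gate differed from that in the other LK cells of the same mice. This was tested as an interaction in edgeR over 12 sums with the mouse as a block. Of 10663 genes 13 passed (0.122%), 5 of them with a more positive age difference in the gate and 8 with a more negative one. Among the other LK cells alone, edgeR called 0 of 12200 genes between ages, while 282 had an unadjusted p under 0.05. The value given for each gene below is the age difference in the gate minus that in the other cells, on the log2 scale.

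Lower in the gate by this measure were Ccnb2 (−2.04, SE 0.31, edgeR adjusted p = 2.38e-06), Ccnb1, the gene of cyclin B1 (−1.82, adjusted p = 0.00632), and Cdc20, the gene of an activator of the anaphase-promoting complex (−1.43, adjusted p = 0.00646). In the other LK cells Ccnb2 averaged 87.9 CPM in aged mice and 87.3 CPM in young mice. Of 52 G2 and M phase genes in this test, 17 were lower at an unadjusted p under 0.05, where 1.74% of all genes were. Plac8 followed at −0.85 (SE 0.13, adjusted p = 2.84e-06), with 3518 ± 741 CPM in the other cells of aged mice and 4475 ± 741 CPM in those of young mice (SD, n = 3 each). Ccl9, a chemokine gene, was at −1.27, Cpa3, a mast cell protease gene, at −1.29, Ighm at −1.88 and Ccl5 at −3.97. By the rule all cells with at least 100 Igkc UMIs lie among the other cells, so the Ighm value also depends on them. The Ighm value reversed in 2 of 16 alternatives and ran from −3.57 to 1.07. For Cpa3, 1 cell held 37 of the 50 UMIs of aged mouse 2, and 2 cells held 50 of the 53 UMIs of young mouse 1. The Ccl5 value rests on the single cell of young mouse 5 with 79 UMIs. It was 0.488 without this cell and the cell of aged mouse 2 with the most MHC class II UMIs.

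Higher in the gate were H2-Aa (3.11, SE 0.50, adjusted p = 1.31e-05), Cd74 (2.28), H2-Ab1 (1.35), Mt1 (0.98) and St3gal6. St3gal6, a sialyltransferase gene, had 34 UMIs in aged and 0 in young gate cells, so that its fitted value is no measure of size. The MHC class II calls depended on mouse 1: without it the values were 0.33 for H2-Aa, −1.41 for Cd74 and 0.51 for H2-Ab1, none past the test. Without aged mouse 4, Cd74 (1.31) and H2-Ab1 (1.09) did not pass either, nor did Ighm without young mouse 3 (−1.05). Mt1 did not pass without aged mouse 2 (0.77), young mouse 1 (0.99) or young mouse 3 (0.63), Ccl9 without aged mouse 4 (−0.86), Ccl5 without young mouse 5 (0.75), or St3gal6 without aged mouse 4 or young mouse 1, 3 or 5. Without those 2 cells 8 genes passed, and H2-Aa was among them while Cd74 and H2-Ab1 were not. With DESeq2 only Ccnb2 passed. H2-Aa and H2-Ab1 also did not pass with at least 3 markers or against lymphoid-primed cells, where Cd74 passed in both. Leaving out aged mouse 2, 4 or 6 kept 12, 6 and 13 of the 13 calls, and leaving out young mouse 1, 3 or 5 kept 5, 10 and 9. Ccnb2 and Plac8 passed in all 6 of these fits. Under other settings Ccnb2 did not pass with cells thinned to 2000 UMIs (−2.14), with exactly 2 markers (−1.31) or against lymphoid-primed cells (−1.52), and Plac8 did not pass with DESeq2 (−0.87) or with at least 3 markers (−0.27). Ccnb1 and Cdc20 did not pass without aged mouse 4 (−1.26 and −1.08), young mouse 1 (−1.40 and −1.19) or young mouse 5 (−1.66 and −1.42), and Cpa3 did not pass without aged mouse 4 (−0.86) or young mouse 1 (−1.05).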

How the data were processed

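Short-read 10x 3′ libraries of 6 mice were used, and the 12 long-read samples of the series were not used here. Per the labels and the study's methods, the authors made the deposited table of UMI counts with Cell Ranger 3.0.2 and Seurat 3, leaving out cells with fewer than 1000 genes or over 5% mitochondrial reads. Values are raw counts, and the library number in each cell's name ties it to a mouse. Columns of per-sample values not used numbered 0.

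The gate was applied to these counts. Cells are not replicates, so UMIs were summed per mouse and tested with edgeR 4.0.16 (filterByExpr, TMM, quasi-likelihood, Benjamini-Hochberg, threshold 0.05). The same fits were run on counts simulated with the common dispersion of these data. Between ages they recovered 5.08%, 46.7% and 100% of genes changed by a fold of 1.5, 2 and 4, with 6 false calls. For the interaction they recovered 1.49%, 4.48% and 71.2%, with 0 false calls. There the changed genes were drawn only from genes above a minimum of UMIs in the gate, so recovery of scarcer genes was not measured. The simulated counts also held no mouse effect shared by gate and other cells. Genes with small changes could thus be missed. The interaction used 12 sums with the mouse as a block. DESeq2 1.42.0 was an alternative, as were thinned counts, stricter gates, no filter, RLE size factors, a term for mice 1 and 2, and leaving out each mouse. No label ties mice 1 and 2, whose other LK cells had the highest MHC class II levels. CPM values were not TMM-scaled. No doublet caller was run, and an alternative left out the deepest 5% of gate cells. Each mouse gave 1 library, so age is compared over 3 mice a group. Exact permutation tests over mice were two-sided. Intervals are exact binomial at 95%.

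The rule for the cells, the 27 gene lists and the tests were chosen with earlier results of these data known. Named genes were the gate genes, surface receptors, genes of the study's text, up to 10 genes each way with the smallest p and no overlap between ages, interaction calls, up to 4 tested genes of each list with the highest CPM, and the 15 genes with the largest lowest ratio of gate to other cells. Exceptions chosen after values were seen are stated, and some genes that the rule names are not reported here. Positions and promoters came from RefSeq on GRCm38.p6, which the submitters' processing notes name, and 112 of 119 names matched. Analyses used Python 3.11.15, scipy 1.17.1 and R 4.3.3.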

Additional observations from a re-analysis of the deposited data

Results flagged for a closer look

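For 13 genes the age difference in the gate cells differed from that in the other LK cells of the same mice, by the interaction test over 12 sums in edgeR. Each value is the age difference (aged minus young, log2) in the gate minus that in the other cells. It was −3.97 for Ccl5, −2.04 for Ccnb2, −1.88 for Ighm, −1.82 for Ccnb1, −1.43 for Cdc20, −1.29 for Cpa3, −1.27 for Ccl9 and −0.85 for Plac8. The positive values were 0.98 for Mt1, 1.35 for H2-Ab1, 2.28 for Cd74, 3.11 for H2-Aa and 9.81 for St3gal6, and the last has no meaning as a size because young gate cells held 0 UMIs of it.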

How the results depend on the processing

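The count of genes called between ages in the gate (1) became 6 with DESeq2, 9 with a term for mice 1 and 2, 50 without a filter, 4 without 2 outlying cells, 2 for a gate without Procr and Tgm2, 2 without the deepest cells, 0 with at least 3 markers (29 higher and 26 lower at an unadjusted p under 0.05 in edgeR) and 0 with exactly 2 (48 higher and 24 lower). Leaving out 1 mouse gave 0 to 6: 3, 3 and 6 without aged mouse 2, 4 or 6, and 0 without young mouse 1, 3 or 5. The interaction count (13) became 1 with DESeq2, 4 with at least 3 markers, 8 with thinned cells, 7 with exactly 2 markers, 2 against lymphoid-primed cells and 8 without the outlying cells, and 8 to 47 without 1 mouse. The difference in share of LK cells was 11.9 points with only cells within the limits as denominator. The median UMI difference was 13.0 with at least 3 markers and ran from −1171 to 114 without 1 mouse. The Mki67 difference was −12.0 points without thinning and ran from −4.07 to 0.788 without 1 mouse. The interaction reversed for Ccl5 (0.49 without the outlying cells, 0.75 without young mouse 5, and −11.2 to 0.75 without 1 mouse), for Cd74 (−1.41 without young mouse 1, and −1.41 to 3.49 without 1 mouse) and for Ighm (1.07 with at least 3 markers, 0.91 against lymphoid-primed cells). The causes were not tested. The settings with exactly 2 markers and without the outlying cells were chosen after seeing the data. Of the values of single genes under alternatives, 491 kept direction and side of the threshold, 36 gained it, 80 lost it and 5 reversed. No paired analysis was possible because the mice of the 2 ages share no number. Young gate cells numbered only 110, which limits what low genes can show.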
